A study of Mus musculus with 6 samples.

Results

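The genes described here make, sense, move and export cholesterol. A list of 31 of them was examined in heart RNA, and 29 had at least 1 probe set (a group of short probes on the array) that the array's annotation gives to that gene alone, out of 18193 genes with such a probe set in all. Soat1, which stores cholesterol as ester, and Nr1h2, which encodes LXR beta, had none. The 29 genes had 65 probe sets. For counts each gene was read at its brightest probe set, the one with the highest mean over the hearts, and 27 of these were bright enough to be tested. The brightest probe sets of Sqle and Lss were too low.

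The arrays hold total RNA of heart tissue from male mice aged 5 to 6 months after a fast of 6 hours, 1 Affymetrix array per sample. There are 3 wild-type samples and 3 samples with a knockout of Cav1, the gene of caveolin-1, and each sample is called a heart here. Strain and the deleted part of the gene are not in the labels. Nothing in them says outright that each heart came from its own animal, so a p-value here reflects only the spread among the 6 samples. Tissue was profiled whole, so fewer cells of a type and less RNA per cell cannot be told apart.

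Cells build cholesterol from acetyl units through mevalonate and squalene, and close squalene into a sterol ring that a further series of enzymes trims. When membranes of the endoplasmic reticulum run short of sterol, the escort protein SCAP carries SREBP2 to the Golgi, where it is cut and released to switch on the synthesis genes; INSIG proteins hold SCAP back when sterol is plentiful. When oxidised sterols accumulate, the nuclear receptors LXR alpha and LXR beta switch on export through ABCA1, ABCG1 and apolipoprotein E. Caveolin-1 binds cholesterol and coats caveolae, membrane pits rich in it, so the 2 systems can be read side by side in hearts without it.

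SREBP2 and LXR bind short elements near the starts of their targets, and 3 upstream stretches are shown because they carry such elements in genes whose RNA was measured here. They come from RefSeq promoter windows (GRCm38.p6, 250 bases before to 50 after a start, with 24 of the 31 genes in the table), searched on both strands. Capitals mark matches to the sterol regulatory element (SRE, TCACNCCAC) and to the box of its partner factor NF-Y (CCAAT, or ATTGG on the other strand) in Hmgcs1 (chr13:119690101-119690350, plus strand). They mark the LXR element (GGTNA and GGTCA with 5 bases between them, here on the opposite strand) in Abca1 (chr4:53159908-53160002, minus strand) and in the most downstream of 3 listed starts of Srebf1 (chr11:60210599-60210693, minus strand).
Hmgcs1: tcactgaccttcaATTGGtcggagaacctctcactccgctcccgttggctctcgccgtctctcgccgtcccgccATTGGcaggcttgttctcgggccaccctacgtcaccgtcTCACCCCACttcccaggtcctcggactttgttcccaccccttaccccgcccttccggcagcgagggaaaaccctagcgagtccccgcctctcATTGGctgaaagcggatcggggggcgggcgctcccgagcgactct
Abca1: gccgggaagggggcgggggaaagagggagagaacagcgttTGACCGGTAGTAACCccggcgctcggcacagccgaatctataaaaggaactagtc
Srebf1: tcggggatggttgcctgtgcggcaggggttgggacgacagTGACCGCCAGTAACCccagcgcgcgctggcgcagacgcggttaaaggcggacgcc

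The SRE letters occur in 1.24% of all 32851 promoter windows, and among the 13 SREBP2 target genes in the table only in Hmgcs1. The NF-Y box occurs in 37.4% of all windows and in at least 1 window of each of those 13 genes. The LXR letters occur in 0.207% of all windows and in those of 2 of the 3 LXR target genes in the table, Abca1 and Srebf1. A match is a description of the letters and not of binding, and no match says only that the letters are not in the window.

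The deleted gene was checked first. Cav1 stood at a normalised intensity of 3853, 3836 and 4216 in the wild-type hearts and 118, 101 and 101 in the knockout hearts. The sources used here do not say whether its probe set lies in the deleted part. All 8 markers of heart muscle cells, with Myh6, Tnnt2 and Mb among them, were measured and none passed the test. They lie among the brightest probe sets, and quantile normalisation gives every array the same set of values by rank. Its part in their levels was not tested, so these were not compared between the groups. Over the array, 714 of 22519 tested probe sets (3.17%) had an adjusted p under 0.05 by limma with Benjamini-Hochberg adjustment, the threshold used throughout, with 531 of them higher in knockout and 183 lower. That split was 577 and 58 with the intensities as deposited, and 585 and 41 after centring on the median.

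No cholesterol gene passed the test at its brightest probe set. Of the 27 tested, 0 were higher and 0 lower (limma, Benjamini-Hochberg), against 2.97% higher and 1.05% lower, 4.02% in all, of the 11486 genes tested at their brightest probe set. At an unadjusted p under 0.05 there were 5, Fdft1, Stard4, Apoe, Scarb1 and Npc1, while 22.0% of all genes reached that level. Differences between knockout and wild type ran from -0.36 to 0.30 on the log2(intensity + 16) scale used throughout, with 13 positive and 14 negative, and their median was -0.014, the same as the -0.014 of all genes. The 95% interval of each of the 27 differences lay inside a 1.5-fold change in either direction, the widest reach being -0.57 for Fdft1 and 0.48 for Stard4. The groups did not overlap for 2 genes with higher values in knockout, Stard4 and Apoe, and for 5 with lower values, Fdft1, Nsdhl, Sc5d, Npc1 and Scarb1; over all genes the knockout hearts lay above every wild-type heart for 13.4% and below for 15.2%. Of the 48 tested probe sets of these genes 1 passed, beside 3.17% of all tested probe sets, with 0.813% as lower. It was a weaker probe set of Fdft1, lower in knockout, and its 95% interval reached past 1.5-fold lower.

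**Figure D1:**
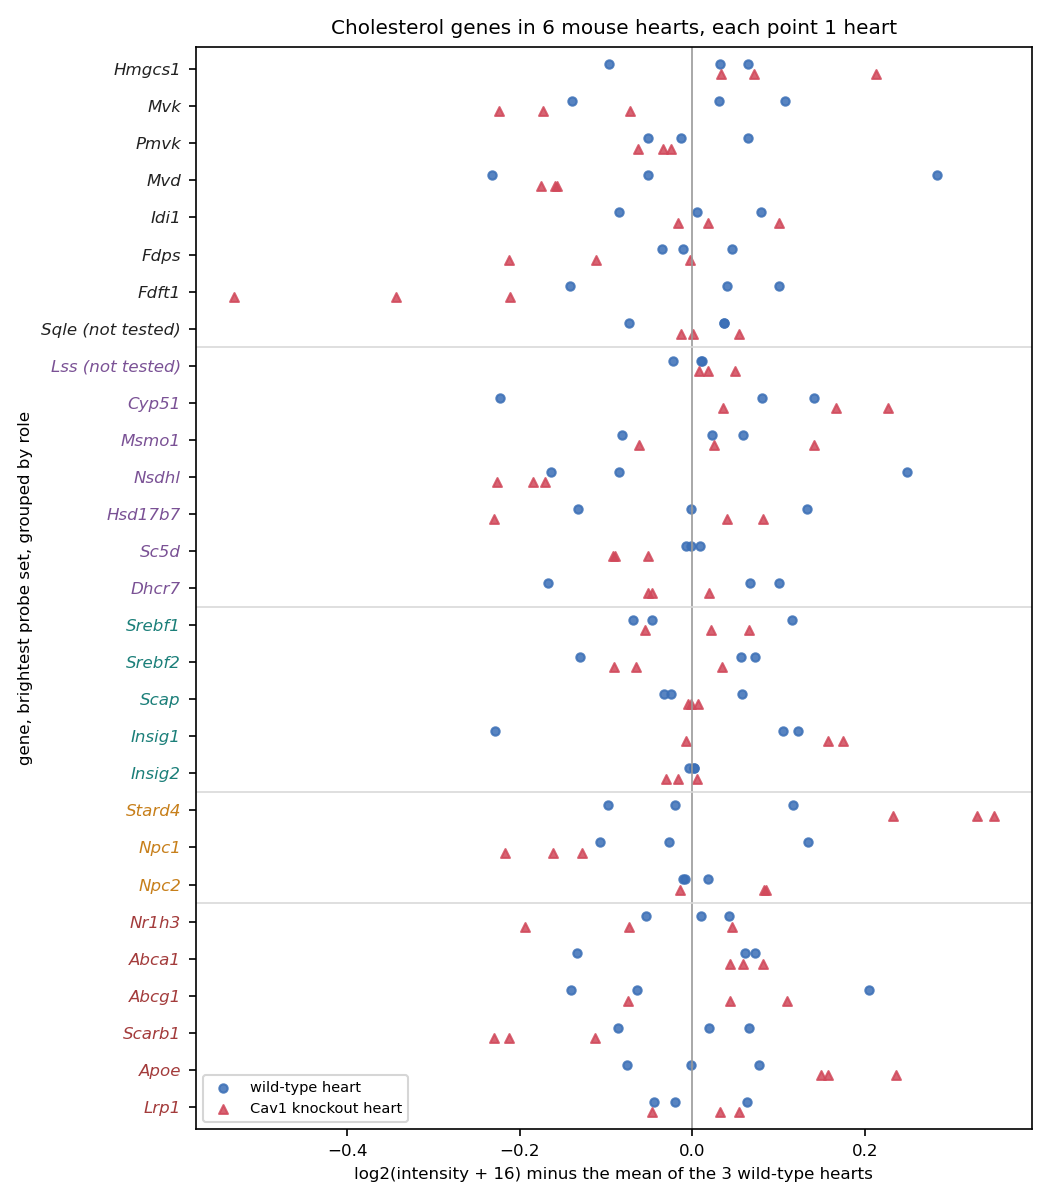
Each row is 1 gene at its brightest probe set, and each point is 1 heart, placed by its log2(intensity + 16) minus the mean of the 3 wild-type hearts (blue circles wild type, red triangles Cav1 knockout; name colours and lines divide the roles). For most genes circles and triangles are mixed; they stand apart for 7 of the 27 tested genes, with the largest differences for Fdft1 and Stard4.

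**Figure D2:**
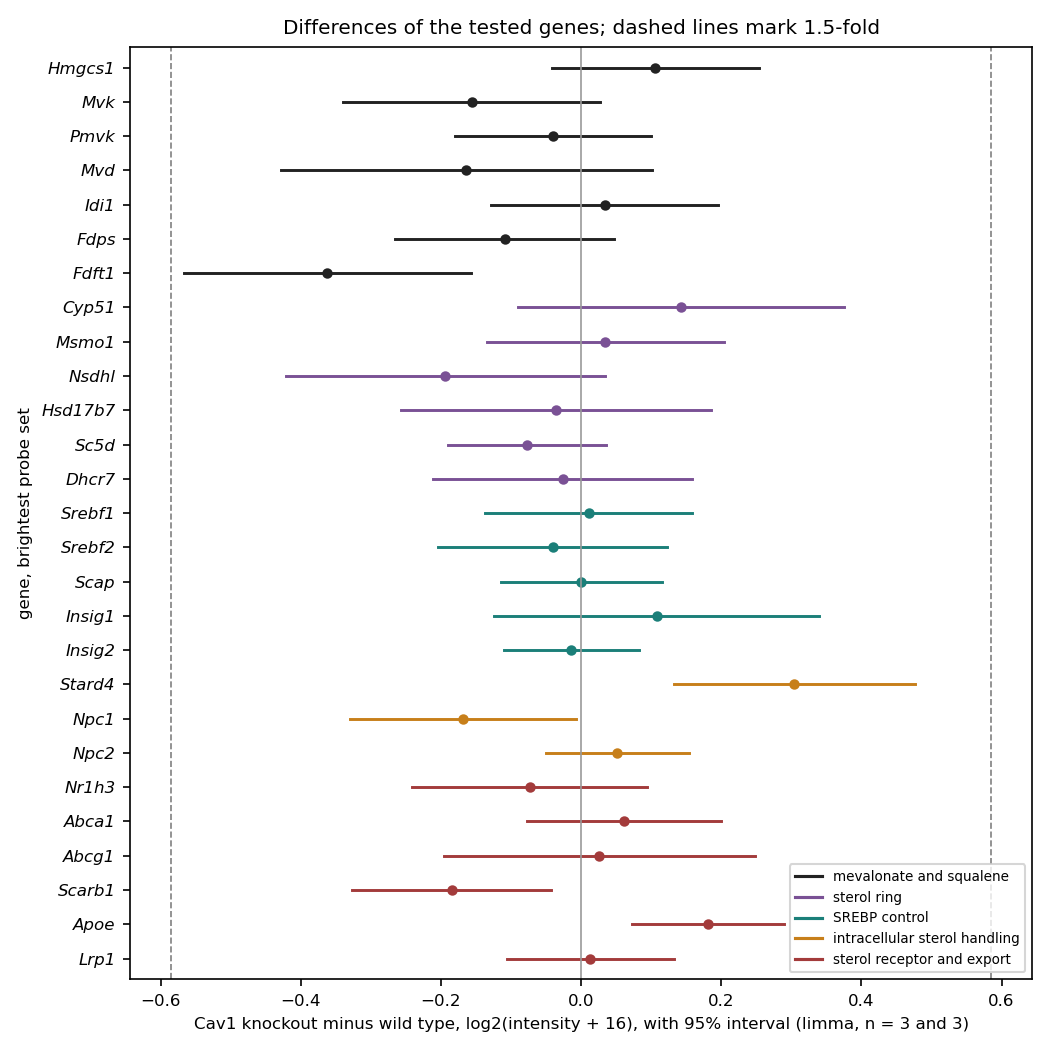
Points give the Cav1 knockout minus wild-type difference of each of the 27 tested genes on the log2(intensity + 16) scale, and lines its 95% interval from limma with 3 hearts a group; dashed lines mark 1.5-fold. All intervals lie between the dashed lines, and those of Fdft1, Stard4, Npc1, Scarb1 and Apoe do not reach 0.

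The first stage of synthesis runs from acetyl units to squalene. Fdft1, squalene synthase, makes the first step committed to sterols, and it was the gene with the lowest values relative to wild type. Its second-brightest probe set fell in knockout hearts, from log2 values of 8.57, 8.68 and 8.72 in wild type to 8.09, 8.28 and 8.36. Every knockout heart lay below every wild-type heart. The difference was -0.41 (SE 0.079, limma adjusted p = 0.0287), a 1.33-fold lower level, beside 0.813% of all tested probe sets that passed as lower. Its 95% interval ran from -0.589 to -0.233, so a 1.5-fold lower level lay inside it. The brightest probe set gave 9.15, 9.33 and 9.39 against 8.76, 8.95 and 9.08, again without overlap, at -0.36 (SE 0.090, limma adjusted p = 0.0721). Its name ends in _x_at, a suffix the manufacturer gives to sets whose probes can match other sequences too. A pair of fainter Fdft1 probe sets, too low to be tested, stood at -0.14 and -0.18, so all 4 had negative differences. The faintest has the _x_at suffix too.

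The call for Fdft1 depended on the setting. Over 15 alternatives the second probe set had adjusted p values from 0.0128 to 0.138 and passed in 8. It had limma adjusted p values of 0.104 with the intensities as deposited, 0.138 after median centring and 0.0521 without a trend. It also missed the threshold without wild type replicate 2 (0.0575), wild type replicate 3 (0.107), knockout replicate 1 (0.0977) or knockout replicate 2 (0.0927). Its difference stayed between -0.47 and -0.32 in all of them. The brightest probe set in turn passed among the upper 25% of probe sets (limma adjusted p = 0.0490), with array weights (0.0267) and without knockout replicate 3 (0.0482), and its adjusted p ran from 0.0267 to 0.241 over 16 alternatives. Adipocyte markers varied between the hearts: the 6 measured of 8 summed to an intensity of 549, 1078 and 2188 in the wild-type hearts and to 237, 234 and 607 in the knockout hearts. Of the 4 that could be tested none passed, all with negative differences. Their part in the Fdft1 difference was not tested.

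The other enzymes of this stage did not pass. Hmgcs1, which joins acetyl units into the precursor of mevalonate and is a classic SREBP2 target with the SRE letters in its promoter, gave 9.16, 9.29 and 9.32 in wild type against 9.47, 9.29 and 9.33 in knockout, a difference of 0.11 with a 95% interval from -0.042 to 0.25. The groups overlapped, and 3 fainter tested probe sets stood at 0.11, 0.033 and -0.052, the first of them with the _x_at suffix. The kinases Mvk and Pmvk were at -0.16 and -0.040, the decarboxylase Mvd at -0.16, and the isomerase Idi1 at 0.034. A fainter probe set of Mvk stood at -0.067, and that of Mvd the other way, at 0.023. That of Idi1, too low to be tested, stood at 0.19. Fdps, which builds the farnesyl units that squalene synthase joins, stood at -0.11 with an interval from -0.27 to 0.047. Sqle, which oxidises squalene, was at 5.54, 5.43 and 5.54 against 5.56, 5.51 and 5.49, below the level tested. Wild type replicate 1 set the value of Mvd: it stood at 7.17, with the other wild-type hearts at 6.65 and 6.83 and the knockout hearts between 6.71 and 6.73, and without it the difference was -0.022.

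Enzymes of the sterol ring did not pass either. Nsdhl, which removes methyl groups from the ring together with Msmo1, gave 8.08, 7.66 and 7.74 in wild type against 7.64, 7.60 and 7.66 in knockout. The groups did not overlap but nearly touched, and the difference of -0.19 (limma adjusted p = 0.315) became -0.070 without wild type replicate 1, the one high heart. Sc5d, a desaturase of the last steps, showed a small gap with little spread, 8.40, 8.40 and 8.41 against 8.35, 8.32 and 8.31, a difference of -0.077 (limma adjusted p = 0.408) that was 0.014 after median centring, where the median of all tested probe sets was 0.051. Its fainter probe sets overlapped between the groups. Cyp51, the demethylase of lanosterol, stood at 0.14, Msmo1 at 0.035, Hsd17b7 at -0.036 and Dhcr7, the last enzyme before cholesterol, at -0.026. The brightest probe set of Hsd17b7 has the _x_at suffix, and its fainter tested ones stood at -0.056 and -0.13. Fainter probe sets of Cyp51, too low to be tested, stood at 0.031 and -0.068. At the brightest probe set of Cyp51 the low heart was again wild type replicate 1, at 6.43 beside 6.79 and 6.73, and the difference was 0.032 without it. Lss, which closes the ring, was too low to be tested, at 5.86 to 5.89 in wild type and 5.89 to 5.93 in knockout.

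None of the 5 genes of the sensor itself passed. Srebf2 encodes SREBP2 and gave 8.08, 7.87 and 8.06 against 7.94, 7.91 and 8.04, a difference of -0.041 with an interval from -0.20 to 0.12. Its fainter probe set stood the other way, at 0.15 with an interval from -0.042 to 0.34, and the mean of both at 0.055. Srebf1, which encodes the SREBP1 proteins of fatty acid synthesis and sterol control, gave 8.77, 8.58 and 8.61 against 8.72, 8.60 and 8.67, at 0.011 with an interval from -0.14 to 0.16. Scap stood at 0.00048, with an interval from -0.11 to 0.12. Insig2 was at -0.014, from -0.11 to 0.082, and its fainter probe sets stood the other way, at 0.0073 and 0.072. Insig1, the form that SREBPs induce, gave 6.98, 7.32 and 7.33 against 7.37, 7.39 and 7.20, at 0.11 with a wide interval from -0.12 to 0.34. Its low heart was wild type replicate 1, and without it the difference was -0.0062.

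Inside the cell, Stard4 carries cholesterol between membranes and is itself a SREBP2 target. It gave 6.64, 6.71 and 6.85 in wild type against 6.97, 7.06 and 7.08 in knockout, the largest positive difference among these genes at 0.30 (SE 0.076, limma adjusted p = 0.0721). Every knockout heart lay above every wild-type heart. Its other probe sets stood at 0.16, without overlap, and at 0.14, with overlap. Over the 15 alternatives that tested it, its adjusted p ran from 0.0566 to 0.216 and never passed. Npc1, which hands cholesterol out of lysosomes, gave 8.19, 8.36 and 8.12 against 8.01, 8.06 and 8.09, without overlap, a difference of -0.17 (limma adjusted p = 0.234). Wild type replicate 2 was its highest heart and the difference was -0.10 without it, -0.093 with the intensities as deposited and -0.075 after median centring. Its partner Npc2, which lifts cholesterol inside the lysosome, stood at 0.052 with an interval from -0.050 to 0.15. Of its other tested probe sets the brighter stood at 0.052 and the fainter at 0.25, with an interval from 0.000635 to 0.49 and a limma adjusted p = 0.249.

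**Figure D3:**
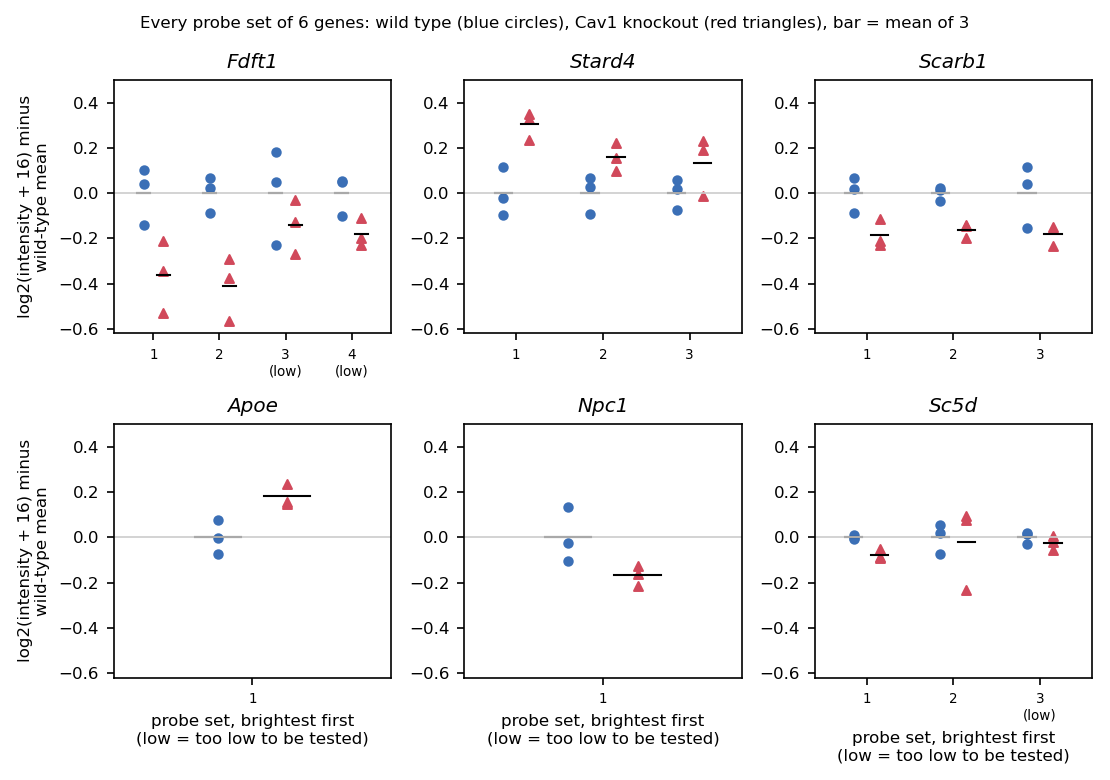
Each panel shows every probe set of 1 gene, brightest first, with 1 point per heart as log2(intensity + 16) minus the wild-type mean of that probe set (blue circles wild type, red triangles Cav1 knockout, bars the mean of 3). The means of Fdft1 and Scarb1 are lower in knockout at each probe set and those of Stard4 higher, while the gap of Sc5d at its first probe set is not seen at the others.

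On the export side, Apoe, the apolipoprotein that carries cholesterol away from macrophages and other cells, gave 10.94, 10.87 and 11.02 in wild type against 11.09, 11.10 and 11.18 in knockout. The groups did not overlap, and the difference of 0.18 (SE 0.048, limma adjusted p = 0.0838), or 1.13-fold, did not pass under any of the 16 alternatives, whose adjusted p ran from 0.0626 to 0.194. Of 14 macrophage markers 6 passed as higher, among them C1qa, Mrc1 and Ctss, beside 2.97% of all genes. All 14 differences were positive. The summed intensity of the 14 was 7682 to 8814 in wild-type hearts and 9752 to 10208 in knockout hearts, 1.22-fold higher on average. Fibroblast markers, of which 3 of 8 passed as higher and all 8 were positive, summed to 1.24-fold. Endothelial markers, of which 4 of 8 passed as higher, with 7 positive and 1 negative, summed to 1.27-fold. The part of these cells in the Apoe values was not tested. Scarb1, a receptor that exchanges cholesterol with high-density lipoprotein, gave 8.46, 8.36 and 8.51 against 8.22, 8.23 and 8.33, without overlap. Its difference was -0.18 (limma adjusted p = 0.154), and its other probe sets stood at -0.16 and -0.18. The names of both of these end in _x_at, so their probes too can match other sequences. At the brightest probe set median centring, which raised the median of all tested probe sets from -0.0096 to 0.051, left -0.096.

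The exporters and their receptor showed no such gap. Abca1, which loads cholesterol onto apolipoproteins and holds the LXR letters in its promoter, gave 9.63, 9.62 and 9.42 in wild type against 9.60, 9.64 and 9.61 in knockout, a difference of 0.062 with an interval from -0.077 to 0.20. Abcg1, which loads high-density lipoprotein, gave 7.14, 6.87 and 6.80 against 6.98, 7.05 and 6.86, at 0.026 with an interval from -0.20 to 0.25. In both genes the groups overlapped, and their fainter probe sets had differences between -0.12 and 0.17, none past the threshold. Nr1h3, which encodes LXR alpha, gave 7.62, 7.52 and 7.59 against 7.50, 7.62 and 7.38, at -0.074 with an interval from -0.24 to 0.095. Lrp1, an endocytic receptor that takes up particles bearing apolipoprotein E, stood at 0.013, and its fainter probe set, too low to be tested, at -0.017.

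The targets of the 2 sensors were then set side by side, with no test made on a set. The 15 tested SREBP2 targets (the synthesis enzymes, Insig1 and Stard4) had 6 positive and 9 negative differences with a median of -0.036, beside -0.014 for all genes. It was 0.027 with the intensities as deposited and 0.045 after median centring. Under these scalings the median of all tested probe sets also moved, from -0.0096 to 0.032 and 0.051. The median of all genes at their brightest probe set is not given for these scalings, so no like comparison was made there. Per heart, the wild-type samples had median deviations from the mean of the 6 hearts of 0.016, 0.019 and 0.031, and the knockout samples of -0.013, -0.0047 and -0.035. These did not overlap between the groups, but the medians per heart of all genes are not given beside them. The 4 LXR targets (Abca1, Abcg1, Srebf1 and Apoe) all had positive differences, with a median of 0.044, and their deviations were 0.076, -0.076 and -0.10 for the wild-type hearts but 0.045, 0.059 and 0.022 for the knockout hearts. Wild type replicate 1 was the highest heart of the LXR set, so the groups overlapped. Without it the median of the LXR set was 0.11, and without wild type replicate 3 it was -0.0089. It was 0.099 with the intensities as deposited, 0.12 after median centring and 0.11 with array weights.

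**Figure D4:**
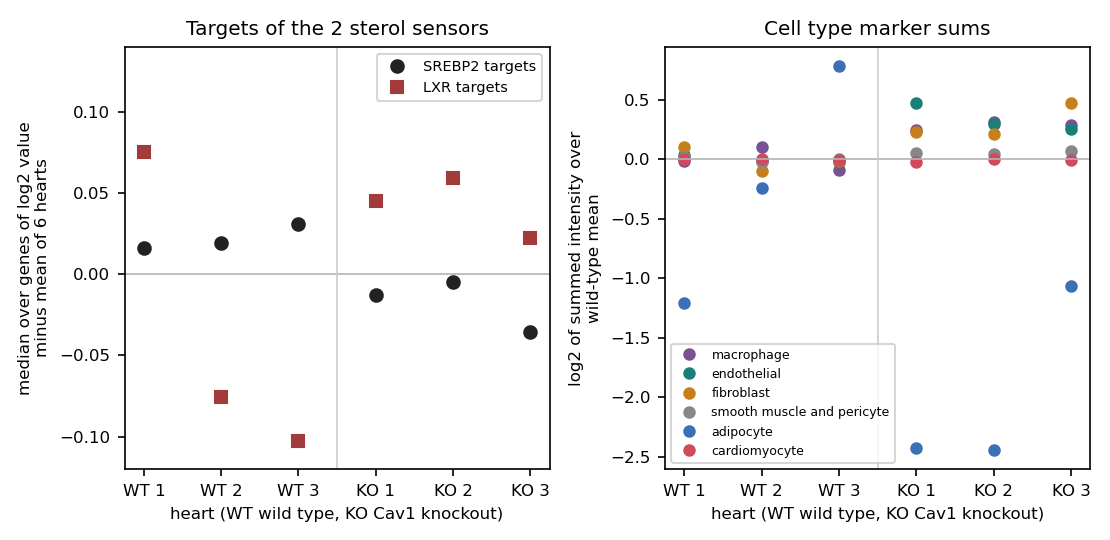
Left, the median over genes of log2 value minus the mean of the 6 hearts, for 15 SREBP2 targets (black circles) and 4 LXR targets (red squares), 1 pair of points per heart. Right, the log2 of the summed intensity of each cell type's markers over its wild-type mean. The SREBP2 targets differ by under 0.1 between hearts, with each wild-type heart above each knockout heart. The median difference of these targets took a positive sign with the other scalings, as did the median of all tested probe sets. Macrophage, fibroblast and endothelial sums are higher in the knockout hearts, adipocyte sums range widely within each group, and cardiomyocyte sums lie near 0. The part of the quantile normalisation in the cardiomyocyte sums was not tested.

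Wider lists of the pathway gave 1 gene of 38 tested past the threshold in either direction, beside 4.02% of all genes, with 2.97% higher. This gene was the LXR target Mylip, a ubiquitin ligase that sends lipoprotein receptors to degradation. It rose from 9.03, 9.01 and 9.03 in wild type to 9.47, 9.30 and 9.35 in knockout, by 0.35 (SE 0.055, limma adjusted p = 0.0134) or 1.27-fold, with no overlap. Only 1 probe set measured it. Over the alternatives its adjusted p ran from 0.00885 to 0.0607, and it missed the threshold without wild type replicate 3 (0.0521) or knockout replicate 1 (0.0607). The other 4 tested genes of that list of 8 did not pass. Over its 5 tested genes, 2 differences were positive and 3 negative, with a median of -0.026. Lpcat3 stood at -0.076, Smpdl3a at -0.055, lower without overlap, and Abcg8 at -0.026. Pltp, a phospholipid transfer protein, gave 9.98, 10.05 and 10.05 against 10.17, 10.21 and 10.32, without overlap, at 0.21 (limma adjusted p = 0.0685). The part of the macrophage, fibroblast and endothelial markers given above in these values was not tested.

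None of the 5 tested genes for other steps of isoprenoid and sterol synthesis passed: Lbr, a sterol reductase of the nuclear envelope, was at 0.22 (limma adjusted p = 0.0618) and Tm7sf2, a reductase for the same step, at -0.20 (limma adjusted p = 0.188). Of 5 tested genes of SREBP processing 0 passed, with 5 positive and 0 negative differences. Mbtps1, the first protease that cuts SREBPs, was at 0.16 and Mbtps2, the second, at 0.10. Both were higher without overlap, as were 13.4% of all genes. Of 13 tested genes of sterol transport and uptake 0 passed, with Stard5 at -0.21 and Osbp, an oxysterol-binding protein, at -0.14. Cyp27a1, which makes 27-hydroxycholesterol, was the one tested gene of 4 that make or use oxysterols, at -0.12. At an unadjusted p under 0.05 there were 2 of 5, 1 of 5, 3 of 13 and 0 of 1 genes in these lists, beside 22.0% of all genes.

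Some fatty acid genes driven by SREBP1 varied widely among the hearts. Of 9 tested 0 passed, with 4 at an unadjusted p under 0.05, a level that 22.0% of all genes reached. Fasn, fatty acid synthase, gave 7.87, 7.74 and 9.01 in wild type against 7.28, 7.39 and 7.66 in knockout, at -0.77 (limma adjusted p = 0.187). Scd2, a desaturase, gave 8.15, 8.13 and 8.12 against 8.23, 8.24 and 8.52, at 0.20 (limma adjusted p = 0.213). Its relative Scd1 gave 9.16, 9.38 and 11.08 against 8.45, 8.25 and 9.51, at -1.14 (limma adjusted p = 0.234). For Fasn and Scd1 wild type replicate 3 was the highest heart, as it was for the summed adipocyte markers, and the part of these markers in those values was not tested.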

How the data were processed

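RNA of 6 hearts was measured on 1 array each. The authors deposited 1 intensity per probe set and array on a linear scale. The submitters' processing notes list GCOS 1.4, and the sources used here do not say how probe sets were summarised or scaled. Trimmed means (2% at each end) differed by 8.42% between arrays, over the limit of 5%, so intensities were quantile normalised. Wild type replicate 1 had the lowest trimmed mean, 154.6, and the other arrays had 163.1 to 167.6. Values are log2(intensity + 16), which understates changes of low genes. Without the 64 control probe sets, the 22519 in the upper 50% by mean were fitted with limma 3.58.1 in R 4.3.3 (lmFit, eBayes with a trend), knockout minus wild type, with Benjamini-Hochberg adjustment over all of them. Intervals are 95% and unadjusted. Gene names come from a platform annotation of 2016. No pair of arrays was a duplicate (Spearman 0.989 to 0.997). The number of arrays limits the precision.

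The genes and lists were chosen with earlier results of these data known. Values per heart are given for genes past the threshold, genes without overlap and the SREBP and LXR genes, and wider lists are described by genes past the threshold or else the 2 with the smallest p; Pltp and Scd1 were added after their values were seen. Alternatives were other scalings, pseudocounts, filters, array weights, no trend, probe set means and leaving out each heart. The fit was tested on simulated data with planted differences larger than any of the cholesterol genes showed, so that test does not cover differences of their size.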

Additional observations from a re-analysis of the deposited data

How the results depend on the processing

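No paired analysis was made because the labels link no wild-type heart to a knockout heart. The knockout titles carry no replicate numbers, and those used here follow the order of the samples. Over 15 alternatives, the brightest probe sets of 29 genes gave 435 values, of which 399 were tested and 3 passed the threshold, all of Fdft1. Of the 435, 37 changed sign, and when each gene's probe sets were averaged 5 of 29 did and 0 of 23 tested passed. Each sign change was of a gene whose difference was 0.11 or less in size. The count of genes lower in knockout was 0, and 1 (Fdft1) with the upper 25% of probe sets, where only 17 of the genes were tested, and 1 with array weights; leaving out 1 heart gave 0 to 1. The count of higher genes was 0 in each. The median of the SREBP2 targets was 0.027 as deposited and 0.045 after median centring (all tested probe sets 0.032 and 0.051), -0.064 with array weights, and -0.049 to -0.0084 when 1 heart was left out. The median of the LXR targets was 0.099 as deposited, 0.12 after median centring, 0.11 with array weights, and -0.0089 to 0.11 when 1 heart was left out. The cause was not tested. Signal limits Sqle and Lss, whose probe sets were tested only with the upper 75% or with no filter, and did not pass there.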
